A study of Mus musculus with 2 samples.

Results

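Open chromatin sites that lie within genes, away from gene ends, and that were listed in both a Brd9 knockout and a control ATAC-seq library of mouse fetal liver progenitors are described here. ATAC-seq marks open DNA with a transposase. Lin- c-Kit+ cells, which bear no marker of mature blood lineages but do bear the receptor c-Kit, were sorted from E14.5 fetal livers of C57BL/6 mice, with 150000 cells per library. The knockout library (replicate 2) came from CD45.2(+) Vav1-iCre Brd9fl/fl cells, in which Vav1 regulatory DNA drives Cre in blood cells. The control library (replicate 1) came from CD45.2(+) Brd9fl/fl cells, which carry the same floxed alleles without Cre. With 1 library per genotype there was no replicate check and no test; every difference is one between these 2 libraries, and the sources used here do not say how many embryos each holds.

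Peaks of both lists that overlapped by at least 1 bp were merged on the 19 autosomes. A merged region was kept when it held peaks of both lists, overlapped the span of a RefSeq gene of any type and lay more than 1 kb from every gene end. This rule kept 5520 of 28403 regions, and of the 18023 regions in both lists it kept 30.6% (exact binomial interval at 95%, upper bound 31.3). The other shared regions were 10264 at gene ends and 2239 between genes. Members were thus chosen by measured values, a called peak in each list and its position, so that they are present in both libraries is no finding. At the 1 kb limit, the members closest to a gene end were in Gm15984 at 1002 bp, with 39 knockout and 40 control reads, in Septin9 at 1003 bp, with 28 and 34, and in Slc1a2 at 1003 bp, with 34 and 79. Just outside were regions in Mgat4a at 1000 bp, with 22 and 26, Gm30262 at 998 bp, with 29 and 48, and Ss18 at 997 bp, with 128 and 174.

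Sites inside genes mix several kinds of element. Introns carry many enhancers, to which transcription factors recruit chromatin remodellers, and genes with more than one promoter have start sites within their span. BRD9, a protein with a bromodomain, belongs to non-canonical BAF, a chromatin remodelling complex known for acting at enhancers and at CTCF sites. The gene table used here gives gene spans but no exons, so whether a region is exonic or intronic was not analysed.

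Among the regions inside genes, 12.7% (11.8 to 13.6; 680 of 5351) held an annotated RefSeq transcript start, that is, an internal promoter. The windows from 250 bases before to 50 after these starts show what such sites look like. The following 5 were picked after their values were seen, from named genes, to show both kinds of sequence: CpG-rich ones at Runx1, Dnmt3a and Hdac4, and CpG-poor ones at Ldb1 and Ubash3b. They run 5′ to 3′ on the gene's strand, from RefSeq on GRCm38.p6 (mm10 coordinates). Capitals mark matches on either strand to any of 4 short motifs. AGATAA is typical of GATA factors. GGAAGT is typical of ETS factors, which include PU.1. TGTGGT is typical of RUNX factors. GGGCGG is typical of Sp and KLF factors.
Runx1, chr16:92697280-92697579, minus strand: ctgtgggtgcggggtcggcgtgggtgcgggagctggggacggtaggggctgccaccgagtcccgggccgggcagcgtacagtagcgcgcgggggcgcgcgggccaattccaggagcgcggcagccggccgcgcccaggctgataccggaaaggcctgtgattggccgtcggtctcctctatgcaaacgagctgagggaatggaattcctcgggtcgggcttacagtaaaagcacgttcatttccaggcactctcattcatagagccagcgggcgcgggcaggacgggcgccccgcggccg
Dnmt3a, chr12:3891494-3891793, plus strand: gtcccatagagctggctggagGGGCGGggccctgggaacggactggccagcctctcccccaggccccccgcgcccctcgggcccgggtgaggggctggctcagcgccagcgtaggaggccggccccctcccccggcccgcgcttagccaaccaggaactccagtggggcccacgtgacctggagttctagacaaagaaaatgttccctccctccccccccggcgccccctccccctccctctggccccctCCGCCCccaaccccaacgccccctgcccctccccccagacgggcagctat
Hdac4, chr1:92180292-92180591, minus strand: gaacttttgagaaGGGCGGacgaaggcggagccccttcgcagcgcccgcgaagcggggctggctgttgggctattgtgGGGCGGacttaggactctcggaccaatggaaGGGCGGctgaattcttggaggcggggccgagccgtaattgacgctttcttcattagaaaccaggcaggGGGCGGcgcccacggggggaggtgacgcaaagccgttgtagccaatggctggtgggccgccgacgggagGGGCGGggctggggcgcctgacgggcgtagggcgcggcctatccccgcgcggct
Ldb1, chr19:46037021-46037320, minus strand: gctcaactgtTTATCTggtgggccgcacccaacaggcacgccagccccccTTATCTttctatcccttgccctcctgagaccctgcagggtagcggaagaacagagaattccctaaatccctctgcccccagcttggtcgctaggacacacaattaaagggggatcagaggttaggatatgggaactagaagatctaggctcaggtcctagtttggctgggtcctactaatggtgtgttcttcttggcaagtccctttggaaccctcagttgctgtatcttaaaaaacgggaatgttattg
Ubash3b, chr9:41079457-41079756, minus strand: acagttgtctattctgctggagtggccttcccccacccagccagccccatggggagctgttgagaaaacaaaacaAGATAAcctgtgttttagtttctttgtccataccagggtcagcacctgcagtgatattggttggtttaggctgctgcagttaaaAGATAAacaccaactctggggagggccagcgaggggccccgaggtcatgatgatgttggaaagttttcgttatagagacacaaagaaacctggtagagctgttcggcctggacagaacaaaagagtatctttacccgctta

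The height of a region is given in summit reads, the number of extended reads over the highest point of its tallest peak, recovered from the deposited fold and p-value. A scaled ratio is the knockout number over the control number, divided by 0.64, the relative depth of the knockout library. Its 95% interval is an exact conditional binomial one and covers counting error only. In sorted bulk cells, fewer cells with an open site and less access per cell cannot be told apart. The knockout list held 22348 peaks with a median of 28 summit reads and the control list 25330 with 37. Of the regions inside genes, 74.0% of 7462 in the knockout list and 60.6% of 9107 in the control list were shared. Inside genes, 5520 regions were shared, 1942 knockout-only and 3587 control-only, beside 18023 shared of 28403 regions at all positions. Of 9 listed markers of blood progenitors, 7 had a shared gene-end region and Gata2 had one inside the gene, whereas Cd34 had neither. Red cell (Klf1, Epor, Slc4a1), megakaryocyte (Pf4, Gp9, Itga2b) and granulocyte or monocyte markers (Mpo, Csf1r) also had shared regions of either kind, although Elane and Cebpe had neither. None of 9 lymphoid, hepatocyte and macrophage markers had either kind, and of 6 endothelial and stromal ones Col1a1 had a gene-end region and Kdr and Pdgfrb had one inside. Genes of the sex chromosomes set the libraries apart. Peaks at gene ends of Ddx3y and Uty, on the Y chromosome, had 33 and 18 summit reads in the knockout and were not listed in the control, and the tallest gene-end peak of Xist had 33 reads in the knockout and 86 in the control. Genotype and this difference cannot be told apart.

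The Runx1 window, at the known proximal promoter of this stem cell transcription factor gene, held 35 CpG dinucleotides and none of the 4 motifs. Its region had 127 summit reads in the knockout and 154 in the control (scaled ratio 1.29, interval above 1 and up to 1.64). The Dnmt3a window, of a DNA methyltransferase gene, held 18 CpG and 2 copies of GGGCGG, in a region with 30 knockout and 43 control reads (1.09, 0.660 to 1.78). The Hdac4 window, of a histone deacetylase gene, held 32 CpG and 5 copies of GGGCGG. Its region was tall in both libraries, with 495 reads in the knockout and 677 in the control (1.14, interval above 1 and up to 1.28). The windows of Ldb1, which encodes a bridging protein of GATA and LMO2 complexes, and Ubash3b, a phosphatase gene, held 5 CpG each and 2 copies of AGATAA each. Windows at another 2 internal starts of Ldb1, also in members, held 23 and 41 CpG, 4 and 1 copies of GGGCGG and no AGATAA. The regions of the CpG-poor Ldb1 window and of the Ubash3b window had 52 and 27 reads in the knockout, against 99 and 41 in the control. Both intervals included 1. This Ldb1 region lay 10.8 kb and the Ubash3b region 82.0 kb from the 5′ end of the gene.

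CpG-rich windows prevailed at the internal starts found in shared regions. Of 4188 annotated starts more than 1 kb from any gene end, counted once where starts of a gene lay under 300 bases apart, 728 (17.4%) fell in a shared region inside a gene. A further 39 fell in knockout-only and 78 in control-only regions, 3144 fell in none, and the remainder lay in regions of other classes. The 728 windows had a median of 20 CpG and a GC content of 61%, against 4 CpG and 49.3% at the internal starts in no region. Starts in shared regions at gene ends, with a median of 23 CpG and 62.3% GC, were close to the 728. GGGCGG stood in 63.3% of the 728 windows, in 18.7% of the internal starts in no region and in 35.8% of all 29396 starts. AGATAA went the other way, with 7.97%, 13.4% and 11.2%. GGAAGT was in 26.1%, 19.9% and 23.8%, and TGTGGT in 12.9%, 19.4% and 16.8%. For all 4 motifs, starts in shared gene-end regions were nearer to the 728 than to the internal starts in no region. GGGCGG stood in 69.9% of these gene-end windows, AGATAA in 5.55% and GGAAGT in 29.7%, and TGTGGT was slightly rarer than in the 728. Motif shares were not matched on GC content, which differed between the classes. Motif counts are matches of letters on both strands, not binding sites, and overlapping matches were not merged.

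Internal promoters were taller than the other regions inside genes. Regions with an internal start had medians of 53.5 summit reads in the knockout and 88.5 in the control, with interquartile ranges of 26 to 103 and 43.8 to 169. Regions without one had 21 and 34, with ranges of 13 to 36 and 20 to 64. Shared gene-end regions had 62 and 100, so internal promoters stood near them, and shared intergenic regions had 20 and 30, near the regions without a start. Over all 5520 members the medians were 22 knockout and 37 control reads. Members spanned a median of 895 bp (interquartile range 724 to 1103) against 1015 bp at gene ends. The summits of both libraries lay a median of 63 bp apart within a member.

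**Figure D1:**
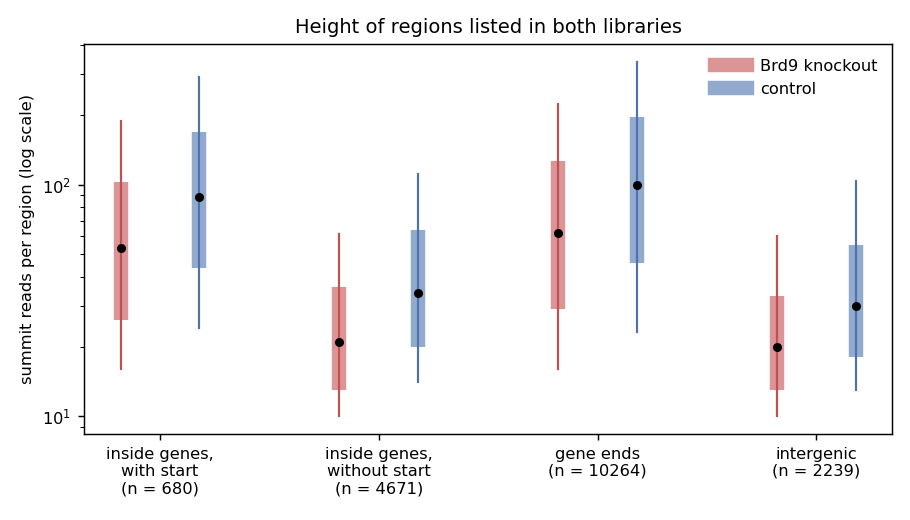
Summit reads of shared regions (log scale) by position, Brd9 knockout left of control in each pair; points are medians, thick bars interquartile ranges and thin lines the range from the 10th to the 90th percentile over regions. Regions inside genes with an annotated start (medians 53.5 and 88.5) reach nearly the height of gene-end regions (62 and 100), and those without a start (21 and 34) that of intergenic regions (20 and 30).

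The internal promoters gathered towards the 5′ end of genes, while the other members were spread almost evenly. For 4380 members the strand of the gene was known. When the gene span was cut into 3 equal parts, the part nearest the 5′ end held 60.8% (57.0 to 64.5) of the regions with a start and 34.9% (33.4 to 36.5) of those without. The part nearest the 3′ end held 10.2% and 30.1%. Where all annotated internal starts lie along genes, in regions or not, was not compared. The first 1 kb from each end holds no member by the rule. The median distance to the nearest gene end was 8.69 kb (interquartile range 3.68 to 20.2), and the farthest was 287 kb. Protein-coding genes hosted 5055 members and long noncoding RNA genes 439. For 290 members, 2 gene spans overlapped, and the region was counted for each gene but named after the smaller coding one.

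**Figure D2:**
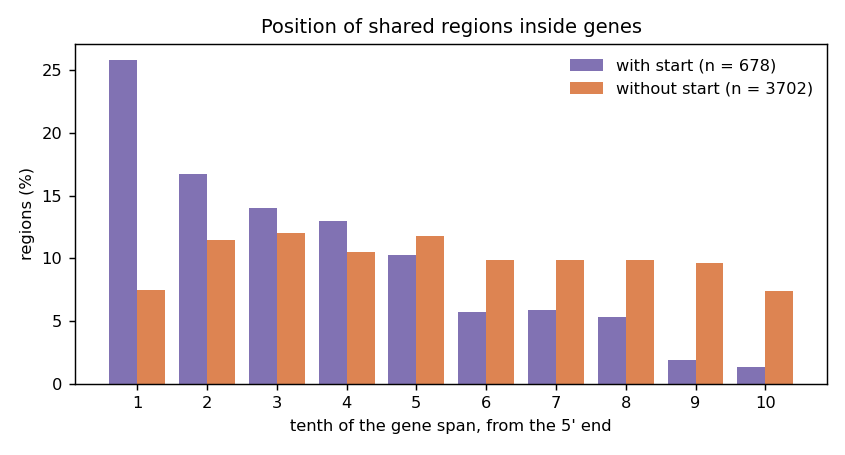
Share of shared regions inside genes (%) in each of 10 equal parts of the gene span, counted from the 5′ end, for regions with (n = 678) and without (n = 3702) an annotated start. Regions with a start make up 25.8% in the first part and 1.33% in the last, while those without stay between 7.43% and 12%.

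Members were spread over 4003 genes, of which 3394 were protein-coding (16.4% of 20665). A single region was found in 2923 genes, and 76 genes held at least 5. The share of genes with a member and the density of members both varied with gene length. Among coding genes up to 10 kb, 2.1% held a member, at 8.65 regions per Mb of span. Among coding genes of 10 to 30 kb, 14.2% held a member, at 9.68 regions per Mb of span, and among those of 100 to 300 kb, 45.3% did, at 5.53 per Mb. Coding genes over 300 kb had 40.9% and 1.58 per Mb. Among coding genes of 100 to 300 kb, a shared gene-end region was present in 60.5% (57.1 to 63.9) of those with a member and in 44.5% (41.3 to 47.6) of those without. Among genes of 30 to 100 kb these shares were 60.5% and 58.4%.

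The gene with the most members was Gse1, which encodes a coiled-coil protein found with CoREST-type histone deacetylase complexes. Its span of 353 kb (chromosome 8, 120228501 to 120581383) held 20 shared regions, with 10 to 184 summit reads in the knockout and 17 to 412 in the control. None held an annotated internal start, and there were also 2 knockout-only and 2 control-only regions. The tallest, 65.5 kb from the 5′ end, had 184 knockout and 412 control reads, a scaled ratio of 0.697 (0.583 to 0.832). The region at 48.2 kb went the other way, with 106 and 119 reads (1.39, 1.06 to 1.82). The region at 144 kb, with 165 and 225, had an interval that included 1 (0.931 to 1.41). At the tallest region the local background was 13.5 reads in the knockout and 32.3 in the control. Its deposited folds, which divide by that background, were 12.7 in the knockout and 12.4 in the control. At 48.2 kb the folds were 12.4 and 9.55. Of the 20 ratios, 11 were below 1 and 9 above, with 1 interval on either side of 1.

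Megf11, which encodes a neuronal cell surface protein with EGF-like repeats, held 10 regions, mostly low, at 8 to 112 knockout and 13 to 203 control reads. Sik3, a salt-inducible kinase gene, held 9, Maml3, a Notch coactivator gene, 8, Igf1r, the receptor gene for insulin-like growth factor, 8, and Rere, a nuclear corepressor gene, 8. The Sik3 regions were low, with 11 to 29 knockout and 14 to 58 control reads, and those of Rere alike, with 11 to 42 and 16 to 61. At Igf1r the tallest region had 64 knockout and 159 control reads, a ratio of 0.629 (0.463 to 0.845). Maml3 also held 8 control-only regions and 0 knockout-only ones, beside 3587 control-only and 1942 knockout-only regions inside genes of the whole set. Its tallest shared region, 2.66 kb from the 5′ end, had 258 knockout and 341 control reads (1.18, 1.0 to 1.39). Ccnd3, 3110082I17Rik, Cdyl, Runx1, Cyth3 and Nol4l, with 7 each, completed the first 12 genes; 19 genes had at least 7.

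The Runx1 regions lay between its known distal promoter, at the 5′ end, and its proximal one, which the last of them held. From the 5′ end, regions at 3.75, 24.5, 39.8, 61, 110, 117 and 128 kb had 92, 71, 14, 16, 51, 17 and 127 reads in the knockout. The same regions had 171, 89, 19, 45, 90, 23 and 154 reads in the control. The lowest ratio was 0.555 (0.293 to 1.0) at 61 kb, and the interval was above 1 only at the internal promoter. Ccnd3, the cyclin D3 gene, had 5 regions in the first 31 kb of its 94.6 kb and a pair near the 3′ end, at 88.6 and 90.7 kb, the first of which held an annotated start. Its tallest had 154 knockout and 292 control reads (0.824, 0.673 to 1.0), and its 7 ratios ran from 0.822 to 1.51.

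At Cyth3, which encodes an exchange factor for ARF GTPases, all 7 regions were below 1. They had 55, 59, 19, 28, 7, 43 and 11 reads in the knockout and 118, 136, 52, 87, 22, 75 and 26 in the control. Their ratios ran from 0.497 to 0.895, and 3 intervals lay below 1. At Nol4l all 7 were below 1 as well, between 0.727 and 0.929, but each interval included 1. Cdyl, a chromodomain corepressor gene, had ratios from 0.694 to 3.77, the highest at a region with 29 knockout and 12 control reads.

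**Figure D3:**
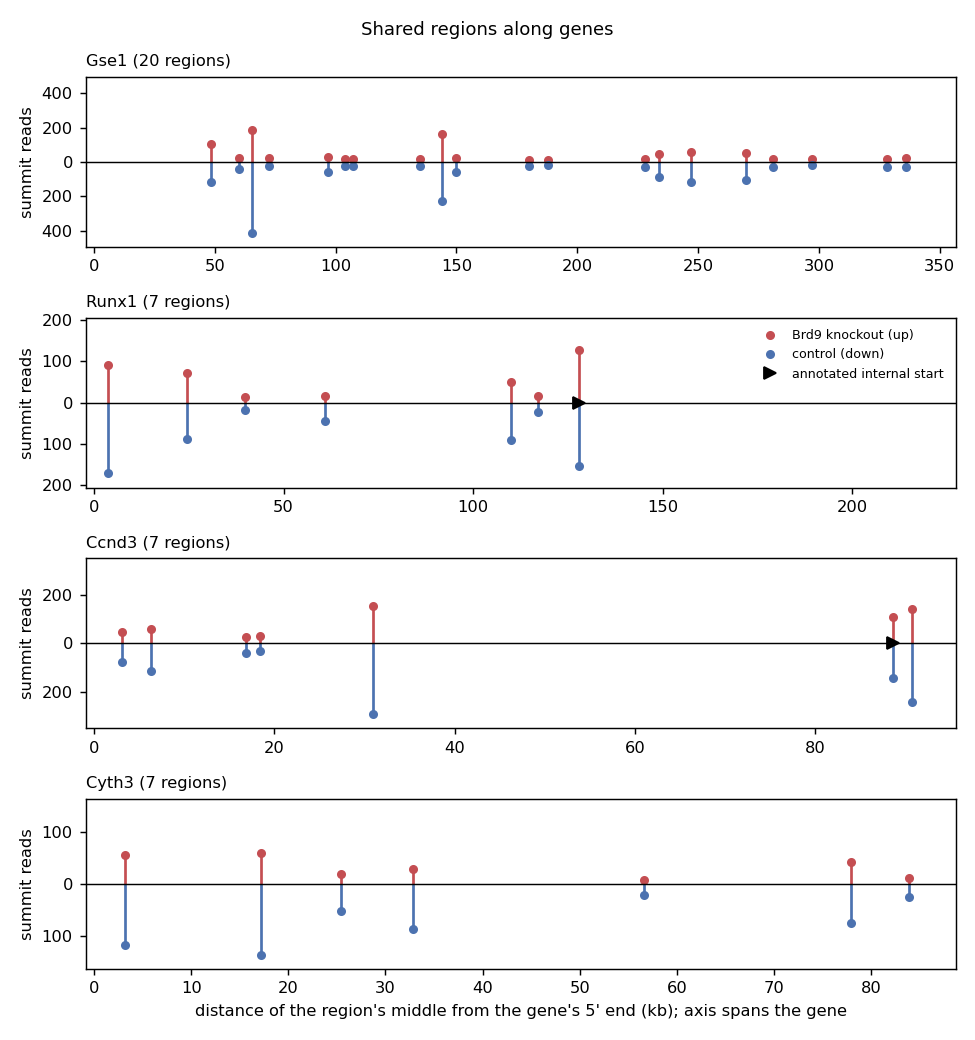
Summit reads of the shared regions inside Gse1, Runx1, Ccnd3 and Cyth3, Brd9 knockout above and control below the line, by distance of the region's middle from the gene's 5′ end in kb; arrowheads mark annotated internal starts. The 20 Gse1 regions reach 184 knockout and 412 control reads, and at Cyth3 the control is taller at each of 7 regions beyond the depth ratio of 0.64.

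Relative to gene length, Ripor1 stood highest among genes with at least 4 members, with 4 regions in 28.1 kb, or 14.2 per 100 kb. It was followed by Tnfrsf1b, the gene of TNF receptor 2 (11.6), Nsmaf, an adaptor gene of TNF receptor signalling (10.2), Sema4b (10.1), Plekhg5 (9.31) and the pseudogene Gm9243 (9.25). Nsmaf had 6 regions with 10 to 74 knockout and 17 to 133 control reads, 5 of them below 1 (median log2 ratio −0.37). The count at Gm9243 is uncertain where the pseudogene resembles other sequence. Each of its 4 regions also lay in the span of a coding gene of 101 kb. Of the members, 24.4% (23.2 to 25.5) had another within 12.5 kb, while the median gap to the nearest was 40.4 kb. Chains linked at 12.5 kb had up to 6 regions, among them one across 3110082I17Rik and Gpr146 on chromosome 5 and one in Nsmaf on chromosome 4. Of 599 chains of at least 2 regions, 27 had at least 4.

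The 12 gene lists examined differed widely in how many members they held, a count that says nothing of the genotypes, since members are present in both libraries. Of 30 stem and progenitor factor genes, 21 held 48 members, with Runx1 (7), Zfpm1 (4) and Bcl11a (4) first. Of 34 autosomal red cell genes, 19 held 45, with Sox6 (6), Ubash3b (4) and Piezo1 (4) first. Of 37 growth factor receptor and signalling genes, 20 held 41, with Elmo1 (5), Tgfbr3 (5) and Pik3cd (4) first. BAF subunit genes had 24 members in 11 of 29 genes, with Arid1b (6), Bicral (4) and Dpf3 (4) first, and other chromatin regulators had 34 in 18 of 36 genes, with Dnmt3a (6), Chd2 (3) and Tet3 (3) first. Per Mb of gene span there were 21.2 members in red cell genes, 18.5 in megakaryocyte and mast cell genes, 15.7 in granulocyte and monocyte genes, 12.5 in BAF subunit genes and 12.3 in stem and progenitor genes, against 5.09 over all coding genes. Signalling genes had 9.78, lymphoid genes 8.74, other chromatin regulators 8.08, hepatocyte genes 4.77, endothelial and stromal genes 2.92 and macrophage genes 1.82 per Mb. A list of long genes, many of them neuronal, had 0.216, beside 1.58 over all coding genes longer than 300 kb. Apart from that value, densities were not matched on gene length, with which density varied. The first-named megakaryocyte genes were Vwf (4), Myh9 (3) and Itga2b (2). Granulocyte and monocyte genes had 4 members in 4 of 23 genes, first Spi1, Csf1r and Cx3cr1, and lymphoid genes 11 in 7 of 25, first Ets1 (3), Runx3 (3) and Tcf3 (1). Hnf4a (2) was the only hepatocyte gene and Mrc1 (1) the only macrophage gene of these lists with a member. Pdgfra, Stab2 and Kdr had 1 each of the 4 endothelial and stromal members. Wwox had 2, Nrxn3 1 and Fhit 1 of the 8 in the long-gene list.

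The knockout and control heights of members were then compared. The median log2 scaled ratio over the 5520 members was −0.06, with an SD of 0.54 beside 0.42 from counting error, and 54.9% of ratios were below 1. Shared gene-end regions had a median of 0.02 (SD 0.38 beside 0.30 from counting) with 48.1% below 1. A ratio of at least 2 was found at 181 members (3.28%), beside 2.4% of all 18021 shared regions with a ratio, and one of 0.5 or less at 196 (3.55%), beside 2.0%. The interval lay below 1 at 577 members (10.5%), beside 8.52% of all shared regions, and above 1 at 285 (5.16%), beside 7.46%. Because a member had to be called in the shallower knockout library too, a low region could enter only with enough knockout reads, and ratios were therefore compared at matched height.

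At matched height, members without an internal promoter and intergenic regions had lower ratios than gene-end regions. Among regions with over 120 and up to 240 summit reads in both libraries together, the 604 members without a start had a median log2 ratio of −0.26 and the 185 with a start −0.06, against −0.04 at 2586 gene-end regions. The 247 intergenic regions of this height had −0.16. The interval lay below 1 at 25.7% of the members without a start and at 11.4% of those with one, against 9.51% at gene ends and 25.1% between genes. With over 60 and up to 120 reads the medians were −0.25 without a start (n = 1244) and −0.12 with one (n = 158), against −0.03 at gene ends and −0.14 between genes. Above 240 reads they were −0.12 (n = 248) and −0.01 (n = 198), against 0.03 and, between genes, −0.12. Up to 30 reads every class had a median above 0, at 0.28 for members without a start, 0.42 for members with one, 0.26 at gene ends and 0.30 between genes. The size depended on how height was matched. Members without a start minus gene-end regions gave −0.21 at over 120 and up to 240 summed reads, −0.26 at 76 to 150 control reads and −0.10 at 46 to 90 knockout reads. With deposited folds in place of reads it was −0.07. Whether another pair of embryos or libraries would differ as much was not measured.

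**Figure D4:**
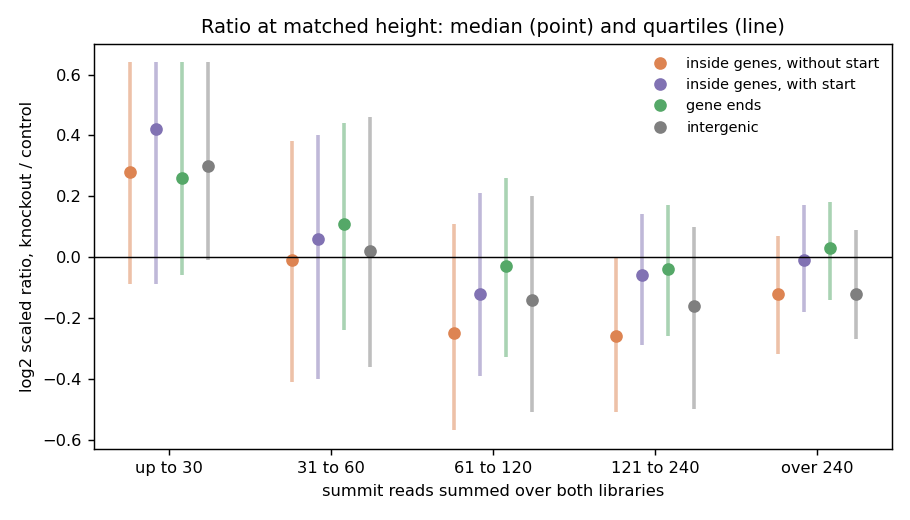
Median (point) and quartiles (line) over regions of the log2 scaled ratio, knockout over control, by summit reads summed over both libraries. Above 60 reads, regions inside genes without a start (−0.25, −0.26 and −0.12) lie below gene-end regions (−0.03, −0.04 and 0.03), and those with a start lie between them.

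The tallest members were tall in both libraries. The region in Zc3h7a, a zinc-finger gene, had 1508 reads in the knockout and 1850 in the control (ratio 1.27, 1.19 to 1.36). At 388 bp it was also the narrowest member, one of 58 under 450 bp, and with deposited folds its ratio was 0.998. Regions in Phf19, a Polycomb-like gene (769 and 1128 reads), and Tmem131 (634 and 972) had intervals that included 1. The other 5 of the tallest 8, in Arrdc3, Add3, Aph1b, Ing1 and Tef, each held an annotated start. Add3, an adducin gene of the membrane skeleton, had 614 and 731 reads (1.31, 1.18 to 1.46), and Tef, a clock output factor gene, 550 and 702 (1.22, 1.09 to 1.37). With deposited folds the ratios were 1.08 at Add3 and 1.01 at Tef.

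None of the 8 highest and 8 lowest ratios was at an annotated start, beside 680 of 5351 members (12.7%) where starts were analysed. The highest by its interval was inside Vav1, a guanine exchange factor gene of blood cells, 11.5 kb from the 5′ end (chromosome 17, 57290151 to 57291114), with 163 knockout and 83 control reads (3.07, 2.34 to 4.04). Its local background was also higher, at 12.1 reads in the knockout and 5.6 in the control. The knockout cells carry Vav1 regulatory DNA in the Cre transgene, so reads of the transgene and of the gene cannot be told apart. Regions in Rhpn1 (41 and 15 reads), Gm30978 (24 and 7), Vsir, which encodes an immune checkpoint receptor (24 and 8), Zfhx2 (49 and 24), Cdyl, Tuba8 (48 and 25) and 4930415O20Rik (33 and 16) followed. Their ratios ran from 3.0 to 5.35, on low control counts. The Vsir region also lay in another gene span.

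The lowest ratio by its interval was inside Zc3h4, a zinc-finger gene, with 60 knockout and 247 control reads (0.379, 0.281 to 0.505), where the local background was 17.2 and 53.6 reads. The region in Pcx, the pyruvate carboxylase gene, had 93 and 354 reads (0.410, 0.323 to 0.517) and lay 47.8 kb from any gene end. Regions in Tgfbr3, the betaglycan gene (9 and 55), Ankrd36 (12 and 67), Zbtb21 (11 and 60), Tmtc2 (17 and 82) and Foxn3 (15 and 69) had ratios from 0.256 to 0.339. The local background at Pcx was 5.54 reads in the knockout and 21.4 in the control. With deposited folds, which divide by that background, the ratio was 0.907 at Pcx, 0.739 at Zc3h4 and 0.987 at Vav1.

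**Figure D5:**
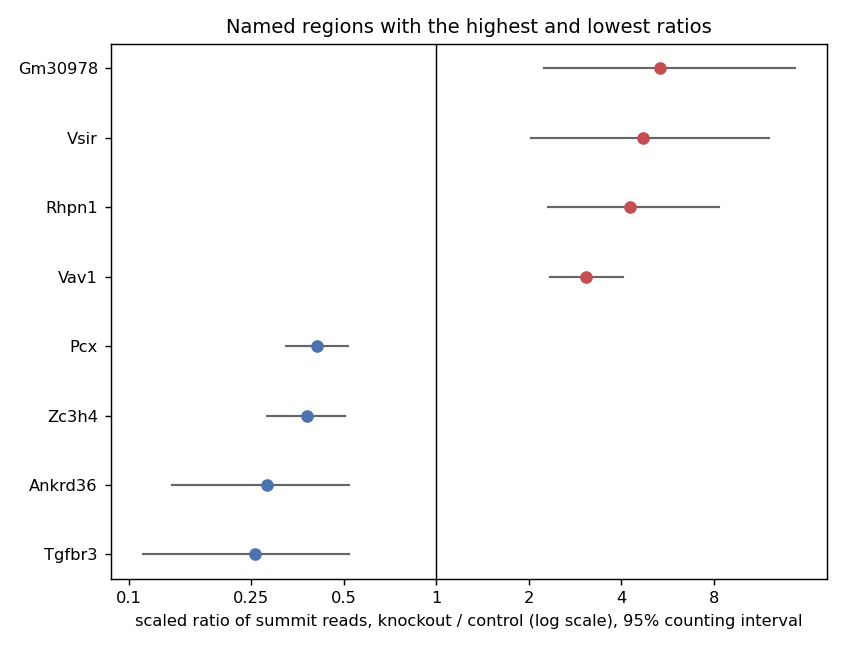
Scaled ratio of summit reads, knockout over control (log scale), with 95% counting intervals, for the 4 members highest and the 4 lowest by the interval bound nearest to 1. Gm30978 is highest at 5.35 with the widest interval, and Pcx (0.410) and Zc3h4 (0.379) have the narrowest among the lowest.

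Within the gene lists, 33 of 45 members in red cell genes were below 1 and 12 above (median log2 ratio −0.20), beside 54.9% below over all members. These members were taller than most, with medians of 47 knockout and 75 control reads. Among all members without a start, 67.8% were below 1 at over 60 and up to 120 summed reads (median −0.25) and 75% at over 120 and up to 240 (median −0.26). The interval lay below 1 at 5 red cell members (11.1%) and above 1 at 1 (2.22%), beside 10.5% and 5.16% over all members. At Sptb, the erythroid beta-spectrin gene, the region 116 kb from the 5′ end had 11 knockout and 51 control reads (0.337, 0.158 to 0.654). The other Sptb regions had 79 and 161 reads (0.766, 0.578 to 1.01) and 89 and 134 (1.04, 0.784 to 1.37). Slc25a38, a mitochondrial glycine carrier gene of heme synthesis, had 86 and 277 (0.485, 0.376 to 0.620). Regions in Slc11a2, an iron transporter gene, with 37 and 102, Epb41, the protein 4.1 gene, with 23 and 66, and Abcb10, with 88 and 182, were the others with an interval below 1. At Bcl2l1, a cell survival gene, the region with internal starts had 240 and 303 reads (1.24, 1.04 to 1.47). Lower red cell ratios away from gene ends were known when these lists were chosen.

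Of 48 members in stem and progenitor factor genes, 30 were below 1 and 18 above (median −0.18), with 5 intervals below 1 (10.4%) and 2 above (4.17%), shares near those over all members. Ikzf1, the Ikaros gene, had 95 knockout and 216 control reads (0.687, 0.534 to 0.878), Ikzf2 24 and 75 (0.50, 0.302 to 0.801), and Bcl11a, a globin repressor gene, 55 and 136 (0.632, 0.453 to 0.870) at its region 53.3 kb from the 5′ end. The Bcl11a region with an internal start had 66 and 103 (1.0, 0.723 to 1.38). The remaining 2 intervals below 1 were in Msi2, an RNA-binding protein gene. At Tal1 the interval was above 1, with 90 and 92 reads 6.75 kb from the 5′ end (1.53, 1.13 to 2.07), as it was at the Runx1 internal promoter. The gene-end region of Tal1 went the other way, with 61 and 214 reads (0.445, 0.329 to 0.594). The region in Gata2, a gene with a well-known intronic blood enhancer, had 32 and 52 reads (0.961, 0.599 to 1.52).

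Signalling genes were mixed, with 17 members below 1 and 24 above (median 0.05). Kit, whose product was used to sort the cells, had 29 knockout and 67 control reads at 33.1 kb (0.676, 0.421 to 1.06) and 18 and 69 at 49.4 kb (0.407, 0.228 to 0.692). The gene-end region of Kit had 65 and 109 reads (0.931, 0.674 to 1.28). Notch2 had 21 and 79 (0.415, 0.244 to 0.679), while Notch1, another Notch receptor gene, had 46 and 44 (1.63, 1.06 to 2.53). Csf1r, the macrophage growth factor receptor gene, had 26 and 18 (2.3, 1.19 to 4.37). Pik3cd, a PI3 kinase gene, had 22 and 16 reads (2.15, 1.08 to 4.37). Tgfbr3 and Vav1, given above, are of this list too. Of 24 members in BAF subunit genes, 17 were below 1 and 7 above (median −0.22), with 2 intervals below 1 (8.33%, beside 10.5% over all members), both in Dpf3. The tallest BAF member, in Arid1b, which encodes a large subunit of canonical BAF, had 227 and 404 reads (0.877, 0.742 to 1.03). Dpf3 encodes a PHD-finger subunit. The 4 Dpf3 regions had 18, 13, 34 and 17 reads in the knockout and 55, 38, 91 and 37 in the control. Of 6 Dnmt3a regions, 1 had its interval below 1, with 69 and 174 reads (0.619, 0.462 to 0.823), and 1 above, with 29 and 22 (2.06, 1.14 to 3.76). Ezh2, the Polycomb methyltransferase gene, had 31 and 77 (0.629, 0.40 to 0.965). Of 14 megakaryocyte and mast cell members, 8 were below 1 and 6 above. The interval lay below 1 at 3 (21.4%, beside 10.5% over all members). They were in Vwf, Myh9 and Tubb1, the last a platelet tubulin gene with 16 and 53 reads (0.471, 0.252 to 0.837). Medians were −0.16 over these 14 and −0.04 over 34 members of other chromatin regulators. The 11 lymphoid members, 5 below 1 and 6 above, had a median of 0.43. The 4 granulocyte and monocyte members, 1 below and 3 above, had 0.52. Median reads were 19 knockout and 20 control in the lymphoid list and 17.5 each in the other. Over all genes, the 945 members with up to 30 summed reads had a median of 0.28. The 1856 members with over 30 and up to 60 summed reads had 0.00. Lef1, a Wnt pathway factor gene, had 28 and 19 (2.30, 1.24 to 4.36). The 2 hepatocyte members had a median of −0.20 and the 1 macrophage member had 0.40. The 4 endothelial and stromal members had 0.04 and the 8 of the long-gene list −0.05. Together they had 1 interval apart from 1, at Fhit (0.717, 0.513 to 0.991).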

How the data were processed

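ATAC-seq peak lists of 1 Brd9 knockout and 1 control library were used. Trimmomatic 0.39, Bowtie2 2.4.4, Picard 2.26.2, deepTools 3.5.1, MACS2 2.2.7.1 and the build mm10 are named without roles or settings, per the submitters' processing notes; the sources used here give no read shift, duplicate or blacklist treatment. Each deposited list belongs to 1 sample. The deposited narrowPeak values are the fold (ratio of summit pileup to local background, pseudocount 1), the −log10 p-value and −log10 q-value, and a score made from the q-value, which was not used; the smallest deposited −log10 q was 1.32 (knockout) and 1.31 (control), and the shortest peak 376 bp in both.

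Summit reads were recovered as the whole number that gives the deposited fold and −log10 p together (Poisson tail; largest relative misfit 7.2e-06 and 7.3e-06). Tested on simulated peaks, 100.0% of 1662 knockout and 1657 control peaks were recovered. The lowest backgrounds, 0.971 and 1.52 reads, gave the relative depth of 0.64, if reads were extended alike; the lists give no total reads. Shared regions with over 3000 summit reads got no ratio (2 regions). PCR copies were not resolved by molecular identifiers, and intervals, of shares exact Clopper-Pearson ones, cover counting error only.

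Genes and starts came from RefSeq, GRCm38.p6; starts on chromosome 18 (169 members) were not analysed here. Of listed genes, those on autosomes were matched by symbol. Named were the 12 genes with most members, the 6 densest with at least 4, the 8 tallest regions, the 8 highest and 8 lowest ratios by the interval bound nearest to 1, and the 3 first genes of each list; other genes with an interval apart from 1 (such as Kit, Ikzf1, Tal1, Notch1, Notch2, Csf1r, Slc25a38) were chosen after their values were seen. Some items that this rule names are not reported here. Members and lists were chosen with earlier results of these data known. Scripts ran under Python 3.11.15 with pandas 2.3.3, SciPy 1.17.1, NumPy 2.4.6 and, for plots, matplotlib 3.10.9.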

Additional observations from a re-analysis of the deposited data

How the results depend on the processing

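With a −log10 q of at least 5 in both lists, 28.5% of shared regions lay inside genes, medians were 26 knockout and 46 control reads, the median width was 917 bp, and 94 members had a ratio of at least 2. At 2.5 kb from gene ends the share was 25.5%. With the top 11174 peaks of each list, 1871 regions were members (19.2% of shared), with medians of 54 knockout and 95 control reads and 993 bp, a median log2 ratio of −0.14, 2 ratios of at least 2 and 19 of 0.5 or less; the order of genes then changed, with 6 regions in Gse1, 4 each in Runx1, Cyth3 and Nol4l, 2 in Sik3 and 1 each in Megf11 and Rere, while Ccnd3 held 5; Megf11 held 5 at the stricter q. Placed by summits, the share was 33.1% and the width 905 bp. With deposited folds, 31 ratios were at least 2 and 37 were 0.5 or less, the matched difference between members without a start and gene-end regions was −0.07, and the regions in Vav1 (0.987), Zc3h7a (0.998), Phf19 (0.986) and Ing1 (0.991) changed side. Matched on control or knockout reads alone, choices added after seeing the data as was the matched comparison itself, that difference was −0.26 or −0.10, against −0.21. The other 42 of 63 main comparisons kept their value within the counting range or, for counts, within 1.5 times, among them all under protein-coding genes only and under an overlap of at least 0.5 of the shorter peak. Scaled to gene-end regions, the log2 median was −0.07. The causes were not tested. No paired analysis was possible because the libraries carry different replicate numbers and each genotype has 1 library.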

Other observations

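Of the 76 genes with at least 5 members, 69 had ratios on both sides of 1, 5 had all below 1 and 2 had all above 1. These genes were picked after their values were seen. Sides are those of the scaled ratios, and with deposited folds some Cyth3 and Nol4l regions lay above 1. Besides Cyth3 and Nol4l, the 5 were Zbtb16, which encodes the PLZF transcription factor (5 regions, ratios 0.579 to 0.868; gene-end region 18 knockout and 36 control reads), Pvt1, the noncoding gene next to Myc (5 regions, 0.471 to 0.992), and Slc22a23 (5 regions, 0.611 to 0.961). Pvt1 also held 4 control-only regions and 0 knockout-only ones, beside 3587 control-only and 1942 knockout-only regions inside genes of the whole set. All above 1 were Nav2, a neuronal gene (6 regions, 1.05 to 1.72), and Elmo1, a partner of DOCK proteins in cell migration (5 regions, 1.02 to 1.34), and each of their intervals included 1. The median ratio of the gene was below 1 in 45 of the 76.

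By chromosome, members made up between 26.1% (chromosome 3) and 32.8% (chromosome 15) of the shared regions. Their density per Mb of gene span ran from 3.32 on chromosome 14 to 6.86 on chromosome 11, and the median log2 ratio from −0.15 on chromosome 6 to 0.04 on chromosome 15.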
